A study of Mus musculus with 11 samples.

Results

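The endocannabinoid genes described here are the cannabinoid receptor gene Cnr1 and 6 genes for enzymes that make or break down its lipid ligands: Dagla, Daglb, Napepld, Mgll, Abhd6 and Faah. They were taken from the deposited count table by gene name. All 7 were found among its 54532 rows, and all 7 passed the filter on low counts that left 19619 genes. The rule for taking them used gene names alone, but earlier results of these data were known when they were chosen. The samples were dissected tissue of the lateral habenula (LHb), a small nucleus of the epithalamus that is active during aversive events, from 3-month-old BALB/c mice of both sexes. In the arthritis groups, collagen antibody-induced arthritis (CAIA) was produced by an intraperitoneal cocktail of 5 monoclonal antibody clones against type II collagen at 50 mg/kg and, 3 days later, lipopolysaccharide (LPS) at 1 mg/kg. Control mice (Ctrl) received vehicle, so arthritis and LPS exposure cannot be told apart. The 11 libraries of total RNA were 3 female Ctrl, 3 female CAIA, 2 male Ctrl (replicates 1 and 3) and 3 male CAIA. No label states that each library came from its own animal, so p-values measure only the spread between these samples.

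The series addresses how rheumatoid arthritis and depression go together. Endocannabinoids are lipid messengers that a neuron makes on demand in its dendrites. They travel backwards across the synapse to the CB1 receptor, the product of Cnr1, on axon terminals, where they reduce transmitter release. The main ligand at most synapses is 2-arachidonoylglycerol (2-AG), made by the diacylglycerol lipases Dagla and Daglb and broken down mostly by the monoacylglycerol lipase Mgll and in part by Abhd6. The other is anandamide, which Napepld can produce from membrane phospholipids and Faah hydrolyses. Cnr1 transcripts in the forebrain are abundant in some inhibitory interneurons and present at lower levels in many excitatory neurons. In bulk tissue a lower value can come from fewer cells of a type or from less RNA per cell, and these cannot be told apart.

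Depth was 25317306 to 29565006 counts per library, and the members had between 832 (Daglb) and 5489 (Mgll) counts in each library. The tissue label was checked against marker genes. The mean log2 CPM of 6 LHb markers lay between 7.25 and 7.53 in all 11 libraries, with Gpr151 at 137 to 204 CPM and Pcdh10 at 235 to 333 CPM (counts scaled to library size by TMM). The dissections also held medial habenula and thalamus. Summed markers were at 1372 to 1873 CPM for medial habenula (9 genes) and 586 to 1307 CPM for thalamus (7 genes). The 6 LHb markers summed to 1091 to 1330 CPM. The levels below are those of the whole dissection. Choroid plexus markers, 10 genes, summed to 1765 to 3837 CPM in Ctrl libraries and 85.6 to 1409 CPM in CAIA libraries without overlap. Of these 10 markers 5 were called lower in CAIA over both sexes, and their part in the values below was not tested. With their level as a covariate no member passed in any comparison, as without it. That level separates CAIA from Ctrl completely, so this fit cannot show its part. Markers of hippocampus and cortex, and of thalamus, also differed between libraries and are given beside Cnr1.

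The first question was how much transcript of each gene the control tissue held. To compare genes, CPM was divided by the kilobases of exon in GENCODE M21 (all exons merged), which gives RPKM. Mgll and Dagla stood at the top in Ctrl tissue, Abhd6 came next, Cnr1, Napepld and Faah were close together, and Daglb was lowest. The 2 genes highest in the order act on the same ligand, 1 making 2-AG and 1 breaking it down.

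Mgll was at 33.0 ± 6.29 RPKM (SD, n = 5 Ctrl libraries), a level above that of 92.7% of the 19610 tested genes with an exon length. Dagla, which makes 2-AG in adult neurons, was at 28.5 ± 3.73 RPKM (n = 5), above 91.3%. The ranges of these neighbours overlapped, 25.9 to 42.1 for Mgll and 22.0 to 31.0 for Dagla. By merged exons their order thus does not hold beyond the spread between libraries, and ratios within libraries are given below. Abhd6, a membrane hydrolase that faces the cytoplasm and takes a smaller share of 2-AG, was at 17.3 ± 1.28 RPKM (n = 5), and its highest library (18.9) was below the lowest of Dagla.

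Cnr1 was at 10.8 ± 2.46 RPKM (SD, n = 5), above 75.7% of tested genes. Its range of 7.95 to 13.7 was wholly below that of Abhd6 (15.4 to 18.9) and overlapped that of Napepld, at 9.38 ± 1.13 RPKM (n = 5). Napepld and Faah, the anandamide pair, also overlapped, with Faah at 7.98 ± 1.36 RPKM (n = 5). Daglb was at 3.55 ± 0.27 RPKM (n = 5), near the middle of all tested genes (above 51% of them), and its range of 3.21 to 3.93 lay below the 6.74 to 10.1 of Faah.

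**Figure D1:**
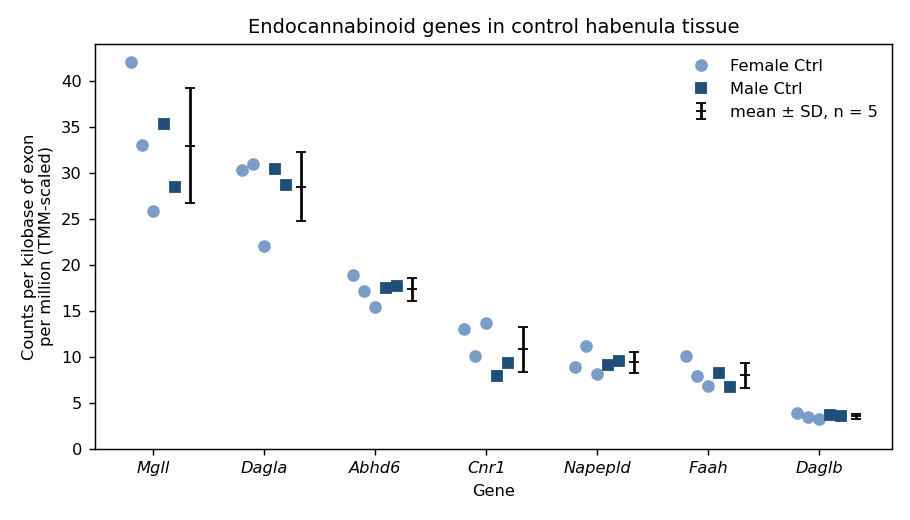
Per-length level (RPKM, y axis) of the 7 endocannabinoid genes in each of the 5 Ctrl libraries, with points for libraries and bars for the mean and SD. Mgll and Dagla overlap at the top, with means of 33.0 and 28.5, Cnr1, Napepld and Faah overlap in the middle, and Daglb is lowest at 3.55.

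These levels depend on the length given to each gene. Divided by the longest transcript in place of the merged exons, Mgll was at 41.9 RPKM, Daglb at 6.97 and Faah at 11.3, which puts Faah above Napepld. Daglb shares 2309 bases with Rac1 on the opposite strand, a gene with 78278 counts in all. Without the shared bases in its length, Daglb was at 4.68 RPKM, and whether the counting used strand is not given in the sources used here.

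Within a library, ratios of 2 members do not depend on how the library was scaled. The RPKM of Dagla was 6.51 to 9.40 times that of Daglb in the 11 libraries (median 7.71). By the longest transcript the ratio was 3.39 to 4.89, so Dagla was the more abundant diacylglycerol lipase transcript in every library by either length. The ratio of Mgll to Dagla, the gene for breakdown over the gene for synthesis of 2-AG, was 0.993 to 1.39 in Ctrl libraries and 0.952 to 1.20 in CAIA libraries. These ranges overlapped in part. Mgll stood above Abhd6 in 11 of 11 libraries, by 1.61 to 2.23 times (median 1.86). Napepld stood above Faah in 10 of 11 libraries by merged exons (median ratio 1.26) but in 2 of 11 by the longest transcript, so no order of the anandamide genes can be given.

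The second question was whether CAIA tissue differed from Ctrl tissue when the sexes had equal weight. None of the 7 genes passed an adjusted p of 0.05 (edgeR's quasi-likelihood test, Benjamini-Hochberg over 19619 genes), and none had an unadjusted p under 0.05. DESeq2 and limma-voom called 0 of 7 as well. The background in this comparison was 0.596% of tested genes, 4 higher and 113 lower in CAIA. The median log2 fold change of the 7 genes was 0.01, beside 0.00 for all tested genes. No member was higher in every CAIA library than in every Ctrl library, where 0.168% of tested genes were, and none was lower in every one, where 1.01% were.

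**Figure D2:**
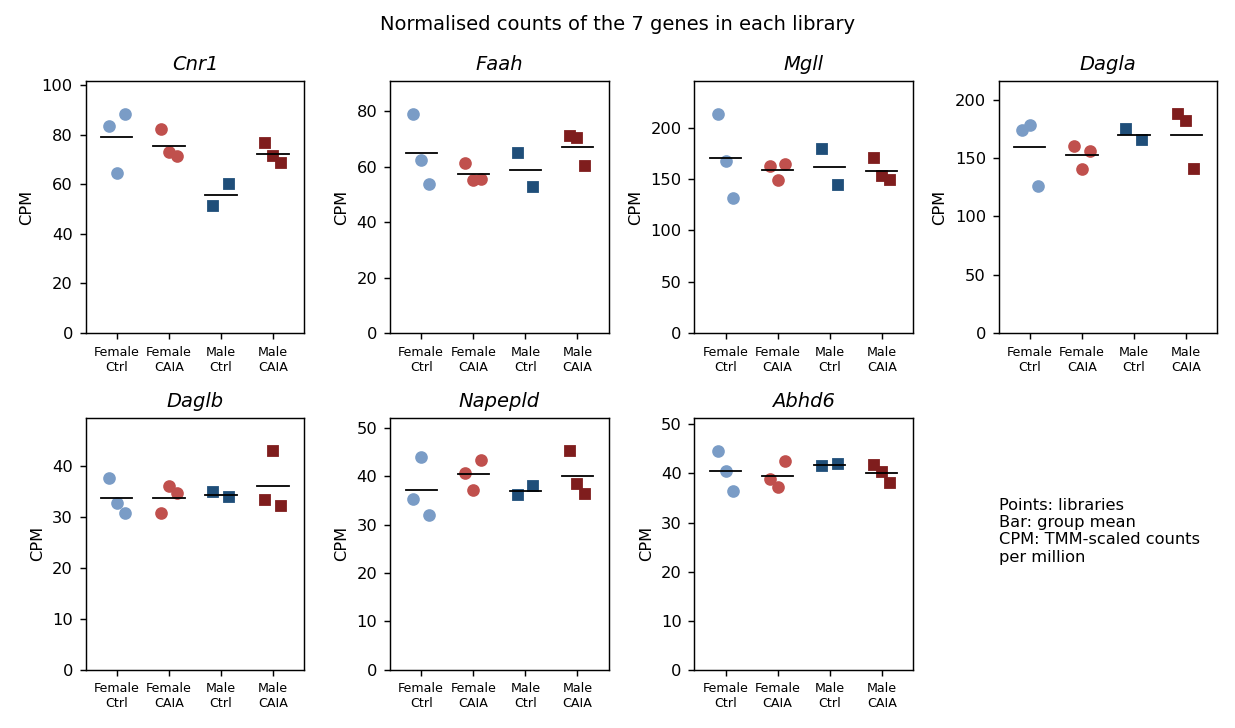
CPM (y axis, own scale for each gene) of the 7 genes in the 11 libraries by sex and treatment, with a point for each library and a bar for the group mean. Within each sex, CAIA and Ctrl libraries overlap for every gene except Cnr1 in males. For Cnr1 both male Ctrl libraries (51.3 and 60.2) lie below all others.

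Cnr1, on chromosome 4 (33924593 to 33948831, plus strand, GRCm38), codes for the CB1 receptor. In female Ctrl libraries 1, 2 and 3 it was at 83.7, 64.7 and 88.5 CPM, and in female CAIA libraries at 82.5, 73.0 and 71.4 CPM. In male Ctrl libraries 1 and 3 it was at 51.3 and 60.2 CPM, and in male CAIA libraries 1, 2 and 3 at 76.6, 71.6 and 68.8 CPM. The male Ctrl libraries were the lowest of all 11, the male CAIA libraries lay within the range of the females, and the female groups overlapped. Over both sexes the log2 fold change was 0.16 ± 0.08 (SE, 95% interval -0.02 to 0.34, edgeR adjusted p = 0.848). As a fold the interval runs from 0.984 to 1.26.

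The synthesis genes came next. Dagla (chromosome 19, 10245265 to 10304877, minus strand) was at 174, 178 and 126 CPM in female Ctrl and 161, 141 and 156 CPM in female CAIA libraries. In males it was at 175 and 165 CPM in Ctrl and 188, 182 and 141 CPM in CAIA libraries. Female Ctrl replicate 3 was the lowest of the 11, and the remaining Ctrl libraries were within 165 to 178 CPM. The log2 fold change over both sexes was -0.03 ± 0.10 (95% interval -0.24 to 0.18, edgeR adjusted p = 0.982).

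Daglb (chromosome 5, 143464584 to 143505942, plus strand), the diacylglycerol lipase known from microglia and other immune cells, was at 34.0 ± 2.56 CPM in Ctrl (SD, n = 5) and 35.0 ± 4.38 CPM in CAIA (n = 6). Its highest library was male CAIA replicate 2 at 43.1 CPM, and the other 10 lay between 30.7 and 37.6 CPM. The log2 fold change was 0.04 ± 0.09 (interval -0.15 to 0.23). Napepld (chromosome 5, 21662901 to 21701396, minus strand), the phospholipase D that releases anandamide, was at 37.1 ± 4.46 CPM in Ctrl (n = 5) and 40.3 ± 3.54 CPM in CAIA (n = 6). Its log2 fold change of 0.12 ± 0.09 (interval -0.07 to 0.31) stood beside 0.12 ± 0.12 in females and 0.11 ± 0.13 in males, and it did not pass in any of them (edgeR adjusted p of 0.917 over both sexes). With 1 library left out at a time it ranged from 0.021 to 0.27 in females and from 0.011 to 0.17 in males.

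The breakdown genes followed. Mgll (chromosome 6, 88724412 to 88828360, plus strand) was at 214, 168 and 131 CPM in female Ctrl and 163, 149 and 165 CPM in female CAIA libraries. In males it was at 179 and 145 CPM in Ctrl and 171, 153 and 149 CPM in CAIA libraries. The female Ctrl libraries spanned all the others. The SD was 32.0 CPM in Ctrl (n = 5) and 9.15 CPM in CAIA (n = 6), and the log2 fold change was -0.07 ± 0.11 (interval -0.30 to 0.16, edgeR adjusted p = 0.961). Abhd6 (chromosome 14, 8002902 to 8056763, plus strand) was at 41.0 ± 3.02 CPM in Ctrl (n = 5) and 39.8 ± 2.08 CPM in CAIA (n = 6). It varied least of the 7, with a coefficient of variation of 6.18% over the 11 libraries, and its log2 fold change was -0.05 ± 0.07 (interval -0.19 to 0.10).

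Faah (chromosome 4, 115967145 to 116017926, minus strand), the hydrolase of anandamide, was at 79.0, 62.3 and 53.5 CPM in female Ctrl and 61.4, 55.2 and 55.7 CPM in female CAIA libraries. In males it was at 64.9 and 52.8 CPM in Ctrl and 71.1, 70.4 and 60.2 CPM in CAIA libraries. The ranges overlapped in each sex. The log2 fold change was 0.01 ± 0.10 over both sexes (interval -0.20 to 0.21, edgeR adjusted p = 0.998), from -0.18 ± 0.13 in females and 0.19 ± 0.14 in males. The test of that difference gave -0.37 ± 0.19 (interval -0.78 to 0.05, edgeR adjusted p = 0.978).

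Over the 7 genes, the intervals of the fold change over both sexes lay between 0.811 (the lower end for Mgll) and 1.26 (the upper end for Cnr1). The spread of several members followed single libraries. Female Ctrl replicate 3 was the lowest Ctrl library for 5 of 7 members and the highest for Cnr1, and female Ctrl replicate 1 was the highest for 4. Female Ctrl replicate 3 also had the lowest thalamus level (mean log2 CPM of 7 markers, 5.81, with the other libraries at 6.30 to 6.95) and the highest summed oligodendrocyte markers, at 6379 CPM with the others at 4558 to 5542. Its summed neuron markers, 6 genes, were the lowest, at 3350 CPM with the others at 3690 to 4333, and its choroid plexus (3837 CPM) and fibroblast (92.6 CPM) sums were the highest. The part of this tissue make-up in the members' values was not tested. Among CAIA libraries, male replicate 1 was the highest for 4 members.

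**Figure D3:**
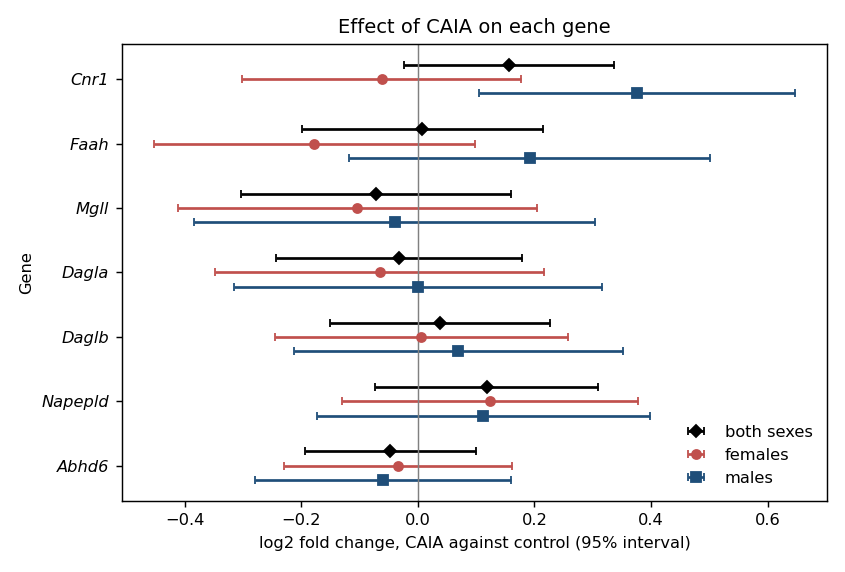
Log2 fold change of the 7 genes (points) with 95% intervals (lines) for CAIA against Ctrl in the sexes together, then in each. Cnr1 in males, at 0.38 with an interval of 0.11 to 0.65, is the one member whose interval does not include 0, and its adjusted p was 0.693.

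The third question was whether the effect differed with sex. In females none of the 7 genes passed the adjusted threshold, with 0.26% of all tested genes called, and none had an unadjusted p under 0.05. The log2 fold changes of the members in females ran from -0.18 (Faah) to 0.12 (Napepld), with Cnr1 at -0.06 ± 0.11. No member was apart in all female libraries, where 5.08% of tested genes were higher and 6.39% lower in every female CAIA library. In males 0% of tested genes were called by edgeR, 1104 had an unadjusted p under 0.05, and limma-voom called 0 and DESeq2 71, with no member among them. Cnr1 was the 1 member with an unadjusted p under 0.05.

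In males Cnr1 was at 72.4 ± 3.96 CPM in CAIA (SD, n = 3) and 55.7 ± 6.33 CPM in Ctrl (n = 2). The log2 fold change was 0.38 ± 0.13 (SE, interval 0.11 to 0.65), a fold of 1.30 (1.08 to 1.57), with an edgeR adjusted p of 0.693. All 3 CAIA libraries were above both Ctrl libraries, as were those of 9.18% of tested genes, while 8.51% were lower in every male CAIA library. With 2 control libraries, 1 of 7 members does not stand out from that background. Over all alternatives the edgeR, DESeq2 or limma adjusted p was 0.0985 or more. Without male Ctrl replicate 1 the log2 fold change was 0.26, and without male Ctrl replicate 3 it was 0.51. The other 6 members were between -0.06 (Abhd6) and 0.19 (Faah) in males.

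The difference of the effect, females minus males, was -0.44 ± 0.17 for Cnr1 (interval -0.80 to -0.08) with an edgeR adjusted p of 0.978. In that test 0% of all tested genes were called, 807 had an unadjusted p under 0.05, limma-voom called 0 and DESeq2 2. Faah had the next largest difference (-0.37), and the other 5 members were between -0.07 and 0.03. A sex difference of the CAIA effect was therefore not shown for any of the 7 genes.

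The male Ctrl libraries enter both that difference and the comparison of the sexes in Ctrl, so these are not separate evidence. In Ctrl tissue Cnr1 was at 79.0 ± 12.6 CPM in females (SD, n = 3) and 55.7 ± 6.33 CPM in males (n = 2). The log2 fold change, females against males, was 0.50 ± 0.13 (interval 0.23 to 0.77), a fold of 1.42 (1.17 to 1.71). It had the 25th lowest p of the 19619 genes, and its edgeR adjusted p was 0.740. In this comparison 0.0357% of tested genes were called, and 0 of 7 members. All 3 female Ctrl libraries were above both male ones for Cnr1, as for 9.18% of tested genes, and 7.39% were lower in every female library. With no filter on low counts (35266 genes) Cnr1 passed, at an edgeR adjusted p of 0.00259. That fit called 396 genes in place of 7, and over the other alternatives the adjusted p of Cnr1 was 0.0739 or more. The other 6 members were between -0.09 (Dagla) and 0.14 (Faah), with 1 or more male library inside the female range.

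Hippocampus and cortex, which border the habenula or lie above it, are known as sites of strong Cnr1 expression, and their marker levels differed between the same libraries. The mean log2 CPM of 10 hippocampus and cortex markers was 1.37 and 1.69 in the male Ctrl libraries, the lowest of the 11. It was 4.05, 2.10 and 2.69 in female Ctrl, 2.84, 2.42 and 1.9 in female CAIA and 2.94, 2.90 and 2.70 in male CAIA libraries. The summed level of the list was 202 to 209 CPM in male Ctrl, 264 to 335 in female Ctrl, 235 to 297 in female CAIA and 260 to 327 in male CAIA libraries. All 10 markers were higher in female than in male Ctrl by fitted fold change and 9 of 10 were higher in male CAIA than in male Ctrl, with none called.

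The mean hippocampus and cortex level separates male Ctrl from male CAIA and from female Ctrl libraries completely. A fit with that level therefore cannot tell tissue make-up from group. With that level as a covariate, the log2 fold change of Cnr1 was 0.15 in males in place of 0.38. The covariate fit gave 0.26 in place of 0.50 for females against males in Ctrl and -0.11 in place of -0.44 for the difference of the effect. None of these passed (edgeR adjusted p of 1.00 in each). Summed astrocyte markers, 6 genes, were 1882 and 2237 CPM in the male Ctrl libraries and 2350 to 3194 CPM in the other 9. Cholecystokinin interneurons are a cell type rich in Cnr1. Their summed markers were 911 and 650 CPM in the male Ctrl libraries and 629 to 840 CPM elsewhere, so these did not stand apart. That list shares Calb2 with the medial habenula list, so it does not mark these cells alone. Vip was at 0 in at least 1 library. Thalamus markers, 7 genes, went the other way from hippocampus and cortex markers. By fitted fold change 7 of 7 were lower in female than male Ctrl and 6 of 7 lower in male CAIA than male Ctrl. None was called. Their mean log2 CPM was 6.95 and 6.75 in male Ctrl, 6.46 to 6.79 in male CAIA and 5.81 to 6.84 in female Ctrl libraries. It was highest where Cnr1 was lowest (male Ctrl replicate 1) and lowest where Cnr1 was highest (female Ctrl replicate 3). The part of the thalamus, astrocyte and interneuron levels in the Cnr1 values was not tested.

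**Figure D4:**
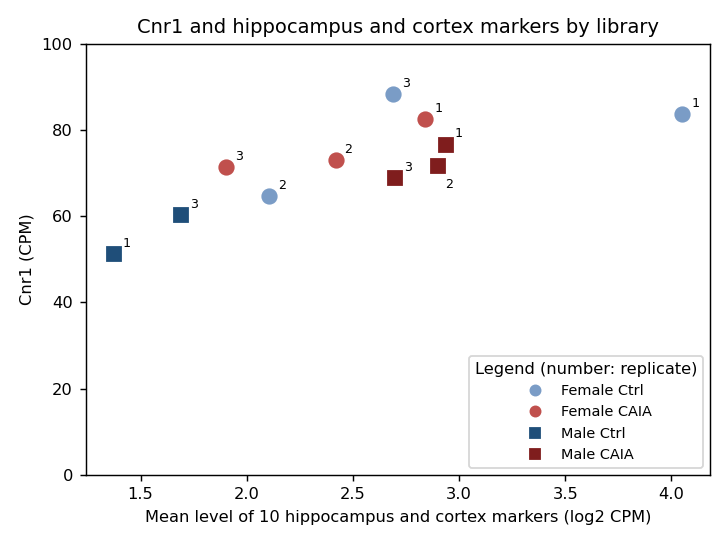
CPM of Cnr1 (y axis) against the mean log2 CPM of 10 hippocampus and cortex markers (x axis) in the 11 libraries, coloured by sex and treatment. The male Ctrl libraries, at 1.37 and 1.69, lie at the lower left, and female Ctrl replicate 1 lies farthest right at 4.05.

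The genes around the 7 in the pathway were described with a list of 28: receptors and receptor partners, genes of synthesis and precursor supply, genes of breakdown and oxidation, and fatty acid-binding carriers. Of these, 23 had enough counts to be tested. The others were Gpr18 (42 counts over the 11 libraries), Gpr119 (9), Trpv1 (45), Hrasls5 (12) and Alox15 (13). None of the 23 was called in any of the 5 comparisons (edgeR, all tested genes adjusted), and DESeq2 and limma-voom called none. At an unadjusted p under 0.05 there were 0 over both sexes, 0 in females, 3 in males, 2 for the difference and 4 for females against males in Ctrl. Over all 19619 tested genes these counts were 1248, 1025, 1104, 807 and 1307. With no filter on low counts edgeR called Ptgs2 in every comparison but that in females, Plcb1 in males, for the difference and between the sexes in Ctrl, and Fabp7 in males. These calls were 1 over both sexes, 3 in males, 2 for the difference and 2 in Ctrl, in a fit that called 423 genes in males and 396 between the sexes in Ctrl. Plcb1, a phospholipase C that yields diacylglycerol, and Fabp7, a carrier, are named here because of those calls, after their values were seen. Over both sexes 12 had positive and 11 negative fitted values, with a median log2 fold change of 0.01.

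Among receptors and their partners, 2 of 5 were positive and 3 negative over both sexes (median -0.05), and none passed. Cnr2, the CB2 receptor gene known from immune cells, had 143 counts in all and was at 0.13 ± 0.06 RPKM in Ctrl (SD, n = 5). Gpr55, a receptor for lysophosphatidylinositol, was at 0.89 ± 0.19 RPKM (n = 5). Sgip1, which slows CB1 internalisation, was at 18.6 ± 2.26 RPKM (n = 5), and Cnrip1, which binds the CB1 tail, was at 9.86 ± 0.40 RPKM (n = 5). The transcripts of these partners were thus at levels near or above that of Cnr1 itself. Sgip1 had a log2 fold change of 0.08 ± 0.08 over both sexes (edgeR adjusted p = 0.941).

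Of the 11 tested genes of synthesis and supply, 8 were positive and 3 negative (median 0.02), and none passed. Gde1 and Abhd4, which act in routes to anandamide that bypass Napepld, were at 104 ± 12.2 and 26.6 ± 1.55 RPKM in Ctrl (SD, n = 5), both above Napepld. Grm5 codes for a glutamate receptor whose signal feeds diacylglycerol to the lipases, and was at 11.2 ± 1.76 RPKM (n = 5). Grm5 was at 131, 126 and 116 CPM in female Ctrl and 134, 125 and 121 CPM in female CAIA libraries. In males it was at 84.6 and 116 CPM in Ctrl and 148, 117 and 118 CPM in CAIA libraries. Male Ctrl replicate 1 was the lowest of the 11. Its log2 fold change was 0.19 ± 0.09 over both sexes (edgeR adjusted p = 0.781) and 0.35 ± 0.13 in males (edgeR adjusted p = 0.795). Without male Ctrl replicate 1 these values were 0.073 and 0.13, and without male Ctrl replicate 3 they were 0.32 and 0.61.

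Of the 4 tested genes of breakdown and oxidation, 1 was positive and 3 negative (median -0.05), and none passed. Abhd12, a further 2-AG hydrolase, was at 66.4 ± 8.18 RPKM in Ctrl (SD, n = 5), above Mgll, and Naaa, a lysosomal amidase, was at 5.69 ± 1.08 RPKM (n = 5). Ptgs2, the inducible cyclooxygenase that can oxidise 2-AG and anandamide, had 585 counts in all. It was at 4.01, 0.393 and 2.52 CPM in female Ctrl, 2.06, 1.29 and 0.962 CPM in female CAIA, 0.376 and 0.832 CPM in male Ctrl and 3.63, 4.0 and 1.73 CPM in male CAIA libraries. All male CAIA libraries were above the male Ctrl libraries, as for 9.18% of tested genes. The female Ctrl libraries spanned nearly the whole range.

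The log2 fold change of Ptgs2 was 0.83 ± 0.53 over both sexes (edgeR adjusted p = 0.882), -0.68 ± 0.66 in females and 2.35 ± 0.83 in males (edgeR adjusted p = 0.791). Without female Ctrl replicate 1 the value in females was -0.033, and without replicate 2 it was -1.17. In males it ranged from 1.89 to 3.04 with 1 library left out. With the hippocampus and cortex level as a covariate the value in males was 0.67, but that level separates male CAIA from male Ctrl completely. With no filter on low counts Ptgs2 passed over both sexes (edgeR adjusted p = 0.0212) and in males (2.25e-08), while over the other alternatives its edgeR adjusted p was 0.535 or more over both sexes and 0.0794 or more in males. Alox12, a lipoxygenase, had a log2 fold change of -0.33 ± 0.28 over both sexes (edgeR adjusted p = 0.927). The carriers Fabp3, Fabp5 and Fabp7 had 1 positive and 2 negative values (median -0.02), and none passed.

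**Figure D5:**
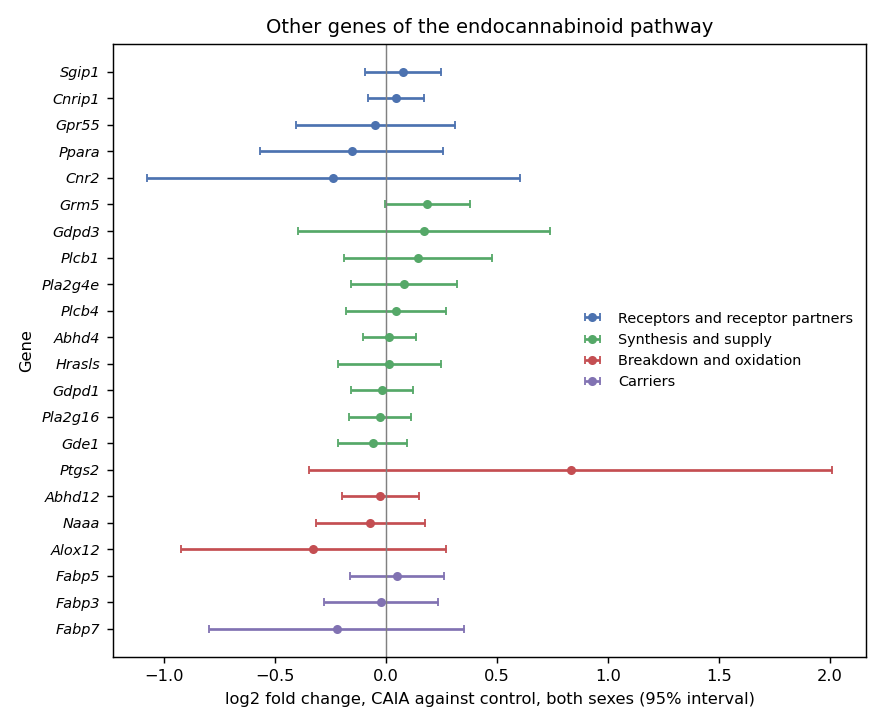
Log2 fold change over both sexes (points) with 95% intervals (lines) for all but 1 of the 23 tested pathway genes, grouped by role. Every interval shown includes 0, with Ptgs2 (0.83) the highest point and Alox12 (-0.33) the lowest.

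For each member the 3 genes with the most similar pattern were found by Pearson's r of log2 CPM over the 11 libraries, among the 15555 genes whose mean was 1 CPM or more. These values describe libraries that differ in tissue make-up and share treatment groups, and carry no test. For Cnr1 they were Gpd2 (r = 0.955), Abi2 (0.950) and Igsf11 (0.939). For Mgll they were Rab15 (0.966), Ppfia3 (0.964) and Dlg4 (0.953), and for Abhd6 they were Clstn1 (0.925), Apip (0.896) and Scrt1 (0.874). For Dagla they were Tmem8b (0.965), Epha10 (0.951) and Tecpr1 (0.947), and for Daglb they were Pnpla3 (0.903), Mtg1 (0.896) and Gm6055 (0.873). For Napepld they were Pgam5 (0.956), Nceh1 (0.949) and Mef2a (0.942), and for Faah they were Camta2 (0.949), Adgrb2 (0.942) and Arf3 (0.938). No gene was among the 3 nearest of more than 1 member.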

How the data were processed

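The deposited values are unnormalized counts, 1 row a gene. For making them the submitters' processing notes name featureCounts 1.5.0-p3, HISAT2 2.0.5 and cutadapt 1.9.1, with GRCm38 as the genome. Neither strand setting nor annotation release was given in the sources used here, and reads of overlapping genes cannot be told apart. All rows carried a gene identifier, and 54495 of 54532 were in GENCODE M21, which gave coordinates and lengths.

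Genes were filtered by filterByExpr (19619 left), scaled by TMM and fitted as 4 groups by the quasi-likelihood model of edgeR 4.0.16 under R 4.3.3 (robust, with 7 residual degrees of freedom). All groups share an estimate of the spread because there were 2 male Ctrl libraries. Benjamini-Hochberg adjustment ran over all tested genes at 0.05, and intervals are at 95%. Library pairs within a group differed beyond counting noise (chi-square over its degrees of freedom from 6.59 to 27.7), so none was treated as a copy of another. This does not show that they came from separate animals. Alternatives tried were DESeq2 1.42.0, limma-voom (limma 3.58.1), other size factors, other filters and thresholds, marker levels as covariates, 1 sex or the controls alone, an additive model, a replicate block, other gene lengths and each library left out. The pineal covariate and the length without shared bases were added after seeing the data, as were the pathway results under each alternative. The fit was tested on simulated counts. Figures were drawn with matplotlib 3.10.9.

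The members and lists were chosen with earlier results of these data known. Named genes were the 7 members, the 4 pathway genes with the lowest p over both sexes, and the 3 most similar genes of each member. Other pathway genes are named for their role and level, not for a change. The pathway list counts include 1 gene whose values are not reported here.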

Additional observations from a re-analysis of the deposited data

Results flagged for a closer look

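Dagla in female Ctrl replicate 3 was at 126 CPM, far below the other 4 Ctrl libraries at 165 to 178 CPM. The gap to the nearest library was 0.749 of the range of the 5 Ctrl libraries, above the critical value of 0.71 for 5 samples. It was the single such gap in 14 checks of the 7 genes in Ctrl and in CAIA libraries, and chance gives about 1 in 20 groups. Without that library the log2 fold change of Dagla was -0.11 over both sexes and -0.21 in females, and it did not pass in either.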

How the results depend on the processing

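The 7 genes stayed uncalled in all 5 comparisons under the alternatives that were run, except that Cnr1 passed for female against male Ctrl with no filter on low counts (1 member called). Of 939 alternative log2 fold changes of members and named pathway genes, 111 in 32 of 43 results changed sign. The most changes were for Dagla in males (19 of 22, main value 0.00067) and Napepld for female against male Ctrl (11 of 22, 0.0026). Faah over both sexes followed (10 of 22, 0.0071). The largest main value with a change of sign was -0.68, for Ptgs2 in females. The cause was not tested, and none of the results that changed sign was called. The levels per length that moved beyond the SD were those of Mgll (41.9), Faah (11.3) and Daglb (6.97) by the longest transcript, and of Daglb (4.68) without shared bases. Depth per library was near equal, and the 2 male Ctrl libraries limit the male values most. Where 1 of them is left out, the remaining one is assumed to vary like the other groups.

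With upper-quartile factors Faah was at -0.00805 over both sexes, Daglb at -0.0018 in females, Dagla at -0.022 in males and Napepld at -0.025 for female against male Ctrl. With RLE size factors, Dagla in males was at -0.0029 and Napepld for female against male Ctrl at -0.0015. DESeq2 gave these 2 values as -0.0028 and -0.0014, and limma-voom as -0.010 and -0.013. Dagla in males was at -0.0019 with no filter and -0.0020 from libraries of 1 sex, and Faah over both sexes at -0.015 in the additive model.

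With the choroid plexus level as a covariate the values over both sexes were -0.18 for Grm5, -0.043 for Sgip1, -0.20 for Faah and -0.16 for Napepld. In females they were -0.43 for Grm5 and -0.22 for Napepld, and in males -0.12 for Dagla and -0.098 for Napepld. For the sex difference they were 0.093 for Daglb, -0.12 for Napepld and -0.051 for Abhd6. With the hippocampus and cortex level, Faah was at -0.062 over both sexes. In females Ptgs2 was at 0.26, Cnr1 at 0.037, Mgll at 0.0054 and Abhd6 at 0.0019, and in males Faah at -0.064, Dagla at -0.070 and Daglb at -0.034. For the sex difference Faah was at 0.0031, Mgll at 0.27, Dagla at 0.035, Daglb at 0.088 and Napepld at -0.17, and for female against male Ctrl Faah at -0.14 and Mgll at -0.18. With the pineal level, added after seeing the data, Dagla was at 0.0031 over both sexes, 0.031 in females, -0.025 in males and 0.056 for the sex difference. Abhd6 was at 0.011 in females and Napepld at -0.021 for female against male Ctrl.

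With each library left out in turn, the values over both sexes ranged from -0.15 to 0.027 for Mgll, -0.11 to 0.029 for Dagla, -0.057 to 0.093 for Faah, -0.0025 to 0.17 for Sgip1 and -0.044 to 0.084 for Daglb. In females they ranged from -0.27 to 0.096 for Mgll, -0.21 to 0.026 for Dagla, -0.11 to 0.050 for Abhd6, -0.061 to 0.10 for Daglb, -0.028 to 0.069 for Grm5 and -0.18 to 0.022 for Cnr1. In males they ranged from -0.079 to 0.12 for Dagla, -0.17 to 0.12 for Mgll and -0.083 to 0.15 for Daglb. For the sex difference they ranged from -0.23 to 0.14 for Mgll, -0.21 to 0.028 for Dagla, -0.13 to 0.080 for Daglb, -0.088 to 0.16 for Napepld and -0.049 to 0.11 for Abhd6. For female against male Ctrl they ranged from -0.035 to 0.29 for Faah, -0.13 to 0.24 for Mgll, -0.15 to 0.10 for Napepld, -0.19 to 0.056 for Dagla, -0.13 to 0.035 for Daglb and -0.13 to 0.035 for Abhd6.

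Over all tested genes, the 117 calls over both sexes became 222 in DESeq2, 470 with no filter, 0 with the choroid plexus level, 61 with the hippocampus and cortex level, 179 at a threshold of 0.1 and 43 to 180 with a library left out. The 51 calls in females became 171, 452, 0, 5 and 91 in the same order, 108 from females alone, 3 with the pineal level and 0 to 104 with a library left out. In males there were 71 in DESeq2, 423 with no filter, 1 with the choroid plexus level, 43 from males alone and up to 142 with a library left out. For the sex difference there were 2 in DESeq2 and 316 with no filter. The 7 calls for female against male Ctrl became 17, 396, 4 with the hippocampus and cortex level and up to 42 with a library left out.

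No pairing by replicate number was seen. Same-numbered libraries correlated at -0.287 to 0.172 over 15 pairs (median -0.032, beside 0.015 for other pairs), and 2 of 11 matched their own number best. Group means were removed first, so the 2 male Ctrl libraries mirror each other exactly. With groups this small the check cannot exclude pairing. With the number as a block, 0 members were called, Dagla in males was at -0.039 and Napepld for female against male Ctrl at -0.0185, and the genes called over all tested were 115 over both sexes, 45 in females, 1 in males, 0 for the difference and 7 between the sexes in Ctrl.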
